A study of Mus musculus with 12 samples.

Results

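The translation initiation and elongation factors were taken as every row of the deposited gene table whose symbol begins with Eif1 to Eif6 or with Eef1 or Eef2, which gave 71 members among 21683 genes. The symbols also take in regulators of these factors, namely the kinases of eIF2 and eEF2, the 4E-binding proteins and the methyltransferases of eEF1A and eEF2. After a filter on low counts, 65 members were among the 12459 genes tested. The rule used names only and no measured value.

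RNA from the liver of F1 male mice was sequenced, in 12 libraries. In the paternal DCHP group (6 livers) the sire had received dicyclohexyl phthalate, a phthalate plasticizer, by oral gavage, and in the paternal control group (6 livers) the sire had received corn oil vehicle. Sires were wild-type males dosed for 4 weeks from 8 weeks of age and were mated to females that had no exposure, so the livers come from animals that were never dosed themselves. The F1 males of both groups ate a high-fat diet (HFD) from 3 weeks of age, over 9 weeks. The labels give neither the litter nor the sire of a liver, so p-values here measure the spread between these livers and not between litters.

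Totals of estimated counts lay between 23794728 and 30445338 in the paternal DCHP group and between 23852848 and 29495170 in the paternal control group. The summed level of 6 hepatocyte markers was 55504 to 81844 CPM (counts scaled to library size) in DCHP livers and 59197 to 73805 CPM in control livers, and none of these markers was at 0. Some libraries stood apart. Summed Kupffer cell markers were 127 to 439.6 CPM in DCHP livers, with the highest value in DCHP 5, and 114 to 187 CPM in control livers. The sum of 4 neutrophil markers, 1 of which was at 0 in every library, was 0.704 to 5.07 CPM in DCHP livers and 0.0430 to 0.669 CPM in control livers, without overlap. The erythroid sum was 114 to 208 CPM in DCHP livers, again with the highest value in DCHP 5, and 116 to 156 CPM in control livers. The part of these cells in the results below was not tested. Summed immediate-early genes were 295 to 2385 CPM in DCHP livers, with the highest value in DCHP 1, and 237 to 459 CPM in control livers. Counts from mitochondrial genes took 5.22% to 8.03% in DCHP livers, with the highest share in DCHP 5, and 5.61% to 6.98% in control livers.

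Protein synthesis starts when the small ribosomal subunit, carrying the initiator tRNA brought by eIF2, is loaded onto the capped end of an mRNA. The cap is bound by eIF4E, the scaffold eIF4G joins it to the helicase eIF4A, and the large complex eIF3 holds the assembly to the ribosome. Once the start codon is found, eEF1A delivers the aminoacyl-tRNAs and eEF2 moves the ribosome along. In the liver, as elsewhere, much of the control acts on the proteins rather than on their mRNAs, through phosphorylation of eIF2 alpha in stress and of the 4E-binding proteins and eEF2 kinase downstream of insulin and nutrients. The values below are mRNA levels only, and phosphorylation was not measured.

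Promoters of this family are shown because some of the short sequence words searched were more frequent in them than in promoters of all genes. The stretches run from 70 bases before to 30 bases after the RefSeq start (build GRCm38.p6, 5′ to 3′ on the strand of the gene). Those chosen were some members on other chromosomes than 18 with an unadjusted p under 0.05 in the comparison below. Added were the abundant factor Eef2, and the X and Y copies of the eIF2 gamma subunit. Eif2s1, Eif2ak3, Eef1d and Eif3i, also under that p, are not shown, so these stretches do not give the share of a word in the family. Capitals mark a match to the E-box CACGTG, to an interferon-response word (GAAA, any pair of bases, then GAAA, on either strand), to the cAMP-response word TGACGTCA or to TATAAA.
Eif3a (chr19:60790664-60790763, minus strand): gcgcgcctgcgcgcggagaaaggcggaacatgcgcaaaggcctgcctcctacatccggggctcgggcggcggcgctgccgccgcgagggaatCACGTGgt
Eif4g3 (chr4:137993385-137993484, plus strand): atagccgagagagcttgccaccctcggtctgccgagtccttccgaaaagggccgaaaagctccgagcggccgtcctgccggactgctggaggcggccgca
Eif2ak2 (chr17:78882543-78882642, minus strand): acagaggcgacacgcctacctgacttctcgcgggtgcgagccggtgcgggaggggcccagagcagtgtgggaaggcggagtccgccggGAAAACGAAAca
Eef2k (chr7:120842761-120842860, plus strand): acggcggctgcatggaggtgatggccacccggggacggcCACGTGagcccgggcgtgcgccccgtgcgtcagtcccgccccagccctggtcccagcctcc
Eif1b (chr9:120492536-120492635, plus strand): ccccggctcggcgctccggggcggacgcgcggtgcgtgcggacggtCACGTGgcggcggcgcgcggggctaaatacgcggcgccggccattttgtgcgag
Eef2 (chr10:81176561-81176660, plus strand): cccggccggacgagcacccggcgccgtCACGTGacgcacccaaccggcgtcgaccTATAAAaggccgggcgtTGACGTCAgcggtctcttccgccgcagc
Eif2s3x (chrX:94212622-94212721, minus strand): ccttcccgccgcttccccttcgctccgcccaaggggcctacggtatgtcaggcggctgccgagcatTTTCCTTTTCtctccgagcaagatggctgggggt
Eif2s3y (chrY:1010525-1010624, plus strand): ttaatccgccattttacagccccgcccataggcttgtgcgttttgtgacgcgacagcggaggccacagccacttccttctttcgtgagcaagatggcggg

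Of the 71 members, 54 had a RefSeq promoter, in 69 promoter entries, stretches around a start of 1 fixed length. The E-box CACGTG was in 16 of the 69 entries (23.2%), against 7.15% of all 32851 entries. The ETS word CCGGAAGT, searched on both strands, was in 15.9% of member entries and in 3.89% of all entries. The GC box GGGCGG, searched on both strands, was in 69.6% of member entries and in 35.7% of all entries. The interferon-response word was in 4 of the 69 member entries (5.80%) and in 3.44% of all entries. The genes holding it were Eif2ak2 (positions 19 to 28 from the start), Eif3a (positions -211 to -202), Eif2s1 and Eif2s3x. TATAAA was less frequent in member entries, at 7.25% against 13.6% of all. The motifs were chosen after the expression values were seen, and the entries of some genes with several starts overlap. A match is a description of letters and not of a factor bound there.

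The factors differed in transcript level over more than 3 orders of magnitude. Per kb of exon, Eef1a1 was the most abundant member at 1402 CPM per kb, followed by Eef2 at 457, Eif1 at 135 and Eif5a at 123 CPM per kb, averaged over all 12 livers. Eif4g1, at 78.6, and Eif4ebp3, at 73.7 CPM per kb, came next. At the low end stood Eef1aknmt, a methyltransferase of eEF1A, at 0.492 CPM per kb. All members together took 0.935% to 1.11% of the counts in DCHP livers (mean 0.998%) and 1.02% to 1.08% in control livers (mean 1.05%). DCHP 2, at 1.110%, was the only DCHP liver above the lowest control liver, at 1.024%.

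**Figure D1:**
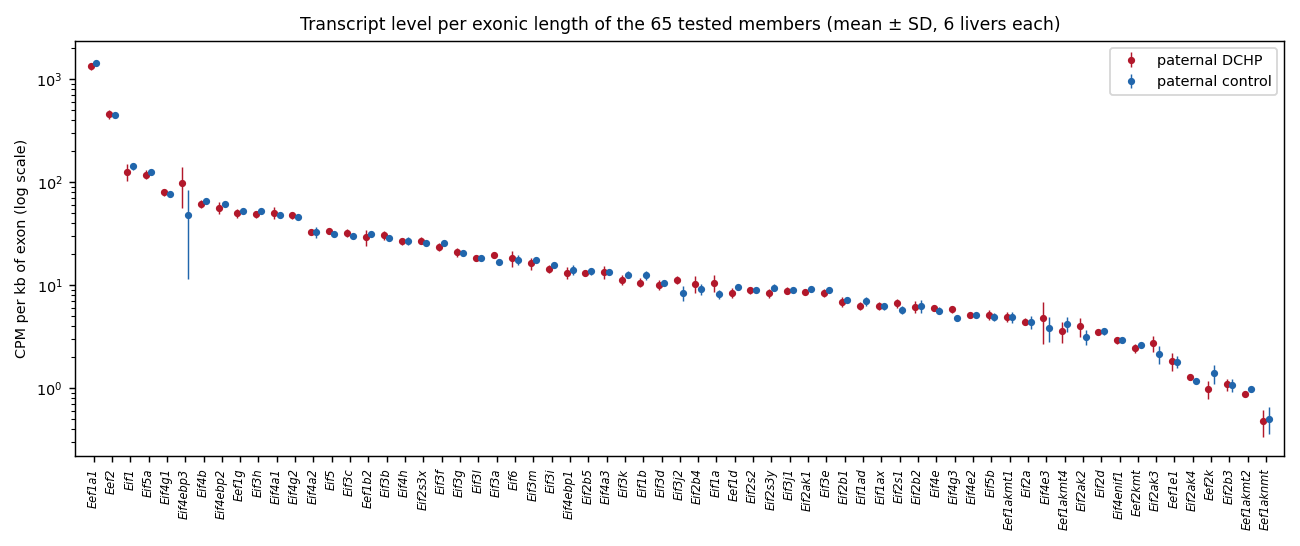
Transcript level of each of the 65 tested members in CPM per kb of exon (log scale, members in order of level), as mean ± SD over the 6 paternal DCHP livers (red) and the 6 paternal control livers (blue). Eef1a1 at 1402 and Eef2 at 457 CPM per kb stand above the rest, and the group means lie close together at nearly every member, Eif4ebp3 being the widest apart.

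Of the members, 6 did not pass the filter on low counts and were given no test. Eif5a2, the paralogue of Eif5a best known from testis and tumours, had 50 counts summed over the DCHP livers and 42 over the control livers. Eef1akmt3 had 23 and 18 counts in the DCHP and control livers. The muscle and neuronal elongation factor Eef1a2 had 0 counts in DCHP livers and 1 count in control livers, at the lower limit of these libraries. Eif4e1b, an oocyte form of the cap-binding protein, and the copies Eif4a3l1 and Eif4a3l2 had 0 counts in every library.

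The comparison of the groups asks whether hepatic mRNAs of the translation machinery differed with the exposure of the sire. Differences were small for most of the family. By the thresholds of the study, a false discovery rate (FDR) under 0.1 and a fold change above 1.5, 0 of 65 members were called by the edgeR quasi-likelihood test, where 1.28% of all tested genes were (0.963% higher in DCHP livers and 0.313% lower). DESeq2 and limma-voom also called 0 members. At an unadjusted p under 0.05 there were 13 members, of which 8 were higher in DCHP livers (10.6% of all genes) and 5 were lower (8.34% of all genes). As 13 of 65 is close to the 18.9% of all tested genes at that level, the count is not a result about the members.

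The intervals show how much difference the data leave room for. The 95% interval of the log2 fold change lay wholly inside the 1.5-fold limit in 58 of 65 members (89.2%), against 64.7% of all tested genes. The absolute log2 fold change was under 0.2 in 53 members (81.5%), against 60.9% of all tested genes. The members' median standard error was 0.08 on the log2 scale, against 0.13 for all tested genes, and their median level was 44.2 CPM, against 14.1 CPM. The median member log2 fold change was -0.01, beside 0.01 for all tested genes, with 31 members above 0 and 34 below.

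**Figure D2:**
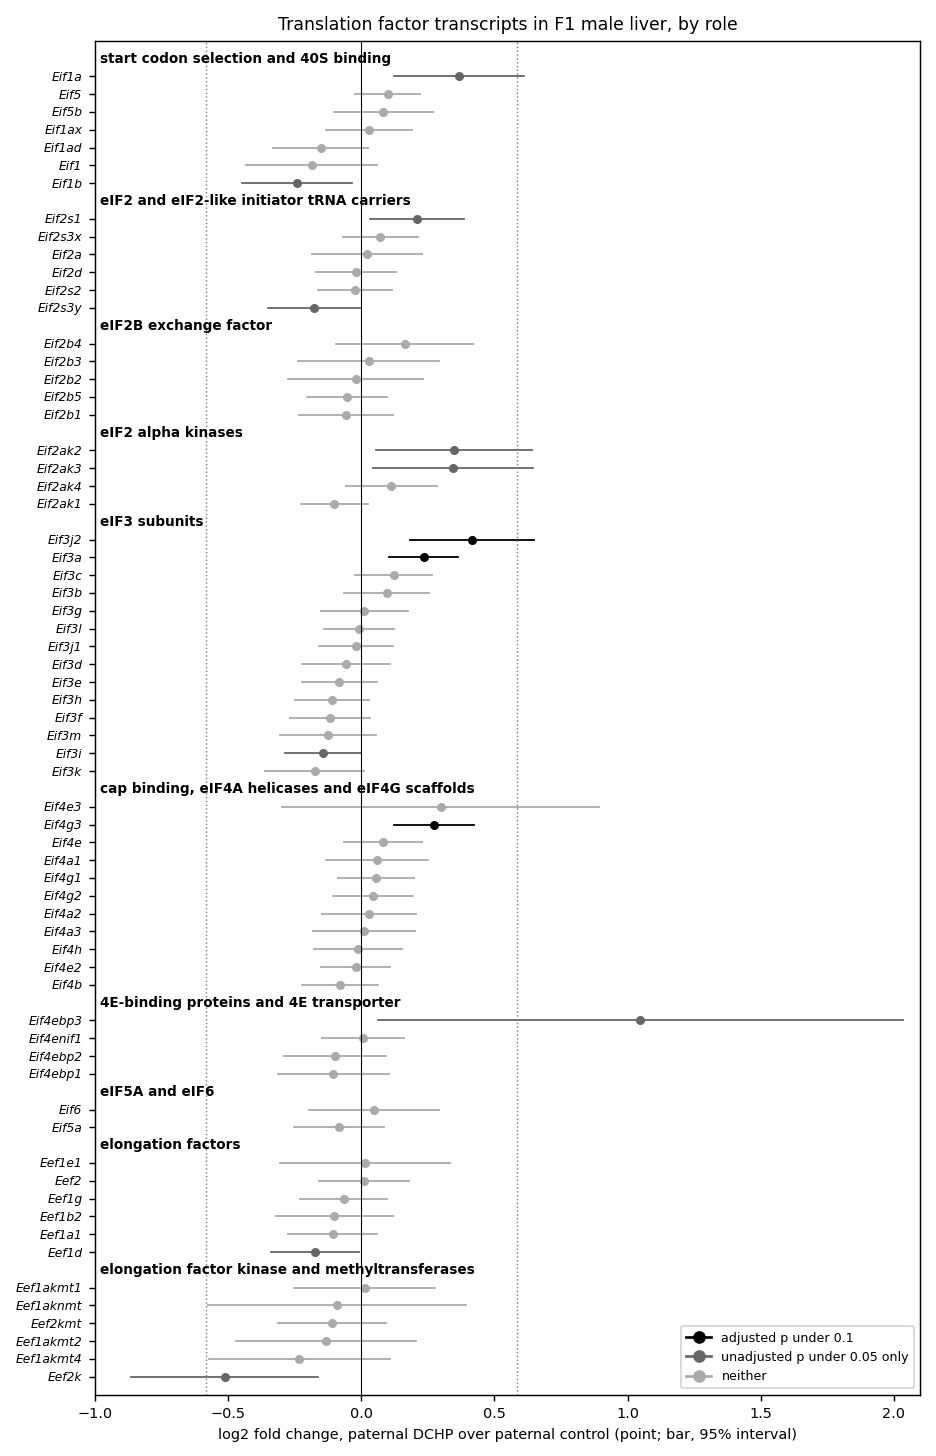
Log2 fold change of each tested member, paternal DCHP over paternal control, with its 95% interval, grouped by role. Dotted lines mark the 1.5-fold limit, black marks the 3 members with an adjusted p under 0.1 (Eif3j2, Eif3a, Eif4g3), dark grey those with only an unadjusted p under 0.05, and most intervals lie between the dotted lines.

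With the fold limit left out, 3 of 65 members had an FDR under 0.1, all of them higher in DCHP livers, each by well under 1.5-fold. Over all tested genes, 3.84% passed that rule, 2.29% higher and 1.56% lower. As 3 of 65 is close to the 3.84%, this count too is not a result about the members. The 3 were Eif3a and Eif3j2 of eIF3 and the scaffold Eif4g3. None of the 3 kept an adjusted p under 0.1 when control 1, 3, 4, 5 or 6 or DCHP 4 or 5 was left out, and none did with 1 surrogate variable. Over the libraries left out in turn, the log2 fold change of Eif3a was 0.20 to 0.26. That of Eif3j2 was 0.34 to 0.48, and that of Eif4g3 was 0.25 to 0.31. With 1 surrogate variable, Eif3a was at 0.21, Eif3j2 at 0.42 and Eif4g3 at 0.23. Once each library's trend on exonic length and GC content was removed, Eif3a and Eif4g3 were lower, at 0.13 and 0.14. Eif3j2 was at 0.46 in that fit. Eif3a was also the only member of which all 6 DCHP livers lay above all 6 control livers (0.907% of all tested genes), and no member had all DCHP livers below (1.24% of all tested genes). With 1 of 65 above and 0 below, these counts are close to the shares over all genes.

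Within eIF3, the largest initiation factor, 14 genes were tested, and the log2 fold changes ran between -0.18 and 0.42, around a median of -0.04. Eif3a (chr19:60761117-60790658, minus strand) encodes the largest subunit, the backbone of the complex. The Eif3a level was 162 CPM at the lowest, 166 at the median and 190.5 at the highest in DCHP livers, against 140.4, 147 and 149.7 CPM in control livers. The highest control liver lay below the lowest DCHP liver, and the control livers spread over less than 10 CPM. Its log2 fold change was 0.24 ± 0.06 (SE, edgeR adjusted p = 0.0786), a fold of 1.18.

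Eif3j2 encodes a copy of the loosely bound j subunit, which sits near the mRNA entry of the small subunit. On the chromosome it spans 2379 bases, all of them exonic, while its paralogue Eif3j1 on chromosome 2 spans 28053 bases. The Eif3j2 level was 22.6, 27.0 and 30.8 CPM (lowest, median, highest) in DCHP livers, against 15.1, 19.8 and 24.7 CPM in control livers. The groups overlapped only at DCHP 3, at 22.6 CPM, and control 2, at 24.7 CPM. Its log2 fold change of 0.42 ± 0.11 (SE, edgeR adjusted p = 0.0807) compared with -0.02 ± 0.07 for Eif3j1 (SE, edgeR adjusted p = 0.897). How reads matching both copies were counted is not given in the sources used here, so the values of the single copies are uncertain. Eif3j2 took 32.6% to 37.8% of the counts of the pair in DCHP livers and 23.2% to 31.9% in control livers, ranges that did not meet.

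The other eIF3 subunits showed smaller differences. Eif3c and Eif3b, which with Eif3a belong to the core of the complex, had log2 fold changes of 0.12 ± 0.07 and 0.10 ± 0.07 (SE). Eif3i had a log2 fold change of -0.14 ± 0.07 (SE, edgeR adjusted p = 0.256), with 48.2 to 58.7 CPM in DCHP livers and 57.7 to 60.3 CPM in control livers. Eif3e, a subunit that helps in contact with the cap complex, was at -0.08 ± 0.07 (SE, edgeR adjusted p = 0.510). Within the DCHP group, DCHP 3 and DCHP 5 held the lowest values of Eif3d, Eif3e, Eif3f, Eif3h, Eif3i, Eif3k and Eif3m. Eif3m, for example, was at 35.1 and 36.8 CPM in these livers and at 41.8 to 49.9 CPM in the other DCHP livers.

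**Figure D3:**
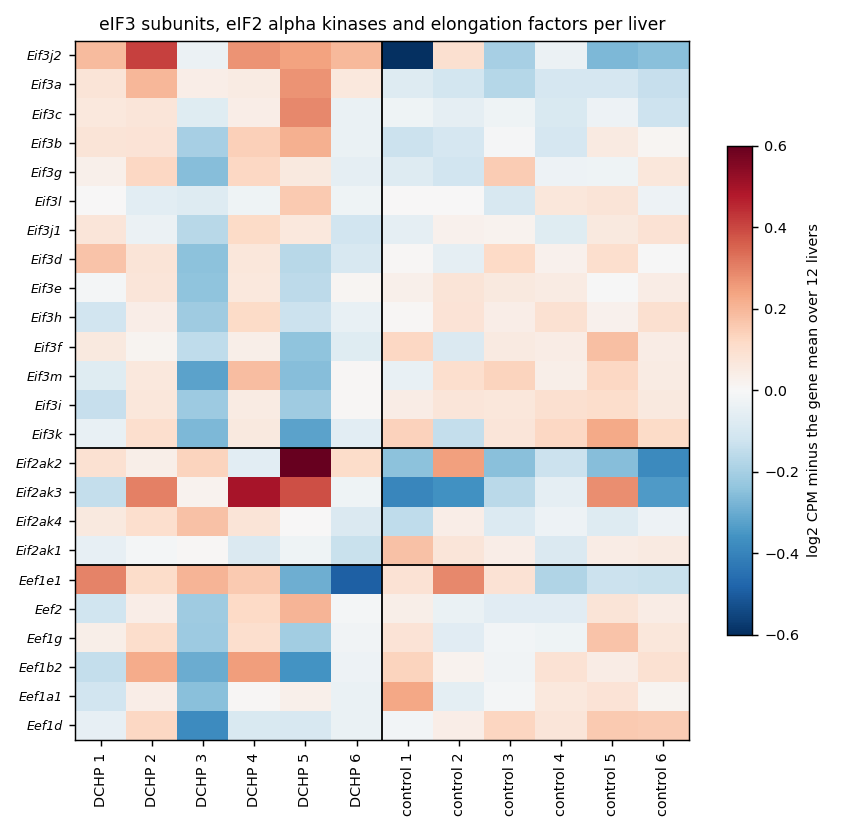
Level of eIF3 subunits, eIF2 alpha kinases and elongation factors in each liver, as log2 CPM (prior count 2) minus the gene's mean over the 12 livers, DCHP livers left of the line and control livers right of it. DCHP 3 and DCHP 5 are blue over the subunits d, e, f, h, i, k and m, Eif3a is red in all 6 DCHP livers, and Eif2ak2 is darkest in DCHP 5.

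At the cap, the helicase and scaffold genes were even between the groups. Of 11 tested genes, 9 had an absolute log2 fold change under 0.2, and their summed level was 2072 ± 87.2 CPM in DCHP livers and 2026 ± 48.3 CPM in control livers (SD, n = 6 each). Eif4g3 (chr4:137993022-138208508, plus strand), a less abundant paralogue of the scaffold Eif4g1, was the exception by p. The Eif4g3 level was 57.5, 65.6 and 70.2 CPM (lowest, median, highest) in DCHP livers, against 49.4, 53.6 and 58.9 CPM in control livers. The ranges met only at DCHP 2, at 57.5 CPM, and control 2, at 58.9 CPM. Its log2 fold change was 0.27 ± 0.07 (SE, edgeR adjusted p = 0.0770), a fold of 1.21. Eif4g1 itself was at 0.06 ± 0.07 (SE, edgeR adjusted p = 0.681), and Eif4g3 took 9.14% to 10.9% of the counts of the pair in DCHP livers and 8.28% to 9.21% in control livers.

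The cap-binding protein Eif4e, which the 4E-binding proteins hold back, had 33.7 to 39.4 CPM in DCHP livers and 30.6 to 37.1 CPM in control livers, with a 95% interval of the log2 fold change from -0.07 to 0.23. The helicases Eif4a1 and Eif4a2 were at 0.06 ± 0.09 and 0.03 ± 0.08 on the log2 scale (SE). The exonic snoRNAs annotated inside both genes were not separated here. Eif4e3, an atypical cap-binding protein, varied widely within both groups, at 4.72 to 20.2 CPM in DCHP livers and 5.92 to 13.3 CPM in control livers.

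The 4E-binding proteins, which keep eIF4E from the scaffold when mTORC1 signalling is low, divided into 2 even genes and 1 very uneven gene. Eif4ebp2 had 290.4 to 423 CPM in DCHP livers and 318 to 384 CPM in control livers, and its log2 fold change was -0.10 ± 0.09 (SE). Eif4ebp1 was at -0.10 ± 0.10 (SE, edgeR adjusted p = 0.582). Eif4ebp3 had the highest log2 fold change of any member, 1.05 ± 0.46 (SE, edgeR adjusted p = 0.239), and the widest interval, 0.06 to 2.03.

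The Eif4ebp3 level was 27.7, 73.0 and 122 CPM (lowest, median, highest) in DCHP livers, against 12.1, 26.0 and 75.3 CPM in control livers. Controls 1, 3 and 4 had 12.1 to 14.5 CPM, below every DCHP liver, while controls 2, 5 and 6 had 60.9, 37.4 and 75.3 CPM, inside the DCHP range. Over the libraries left out in turn, the log2 fold change ran between 0.85 and 1.41, and it was 0.69 with DCHP 1 and DCHP 4 left out together. Eif4ebp3 shares 501 exonic bases with an annotated gene on the same strand that spans its whole length. Ankhd1, the neighbour of Eif4ebp3, had 26.4 to 42.8 CPM in DCHP livers and 22.0 to 29.1 CPM in control livers. Its log2 fold change was 0.36 ± 0.12 (SE, edgeR adjusted p = 0.141), and its spread was far narrower than that of Eif4ebp3.

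**Figure D4:**
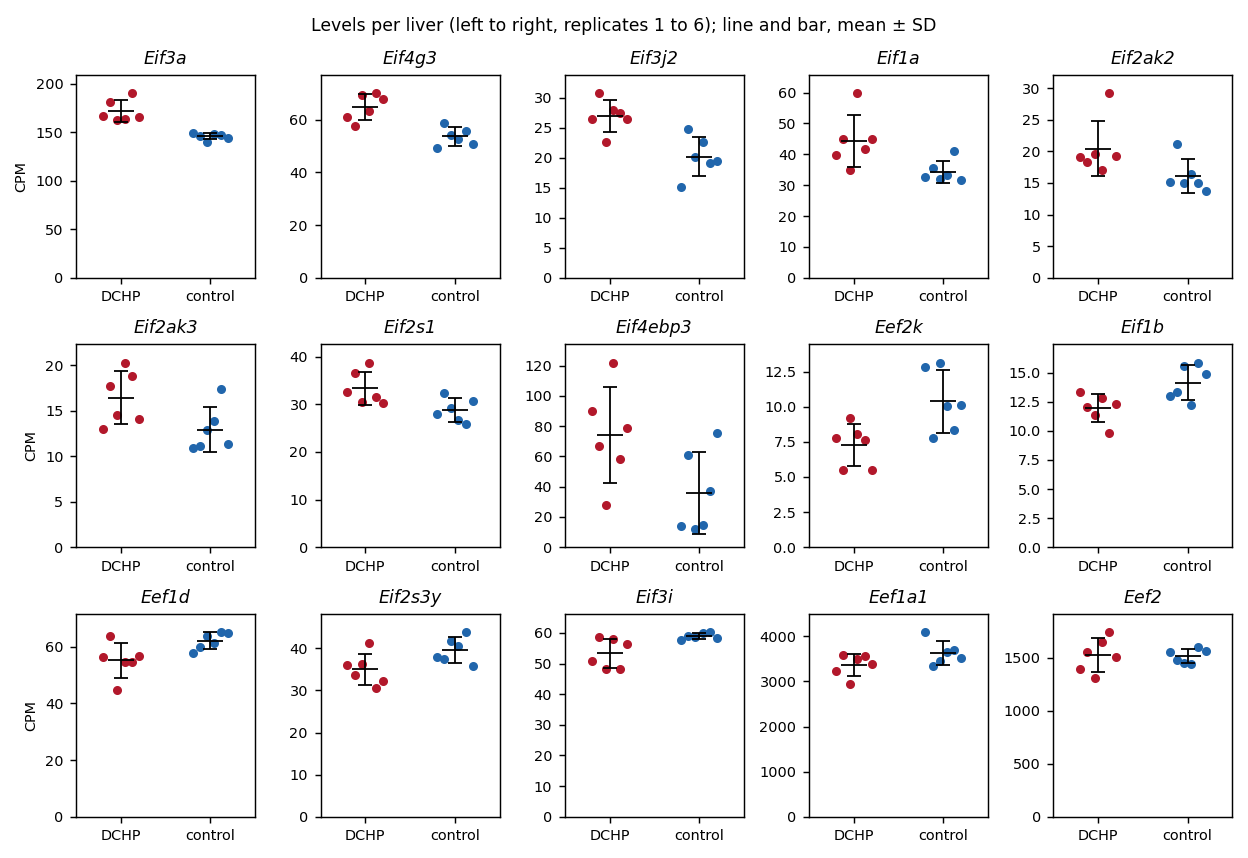
CPM per liver for the 13 members with an unadjusted p under 0.05 and for Eef1a1 and Eef2, with paternal DCHP (red) left of paternal control (blue), replicates 1 to 6 from left to right, and mean ± SD. Eif3a does not overlap between the groups, Eif4ebp3 splits the control livers into 3 at 12.1 to 14.5 CPM and 3 at 37.4 to 75.3 CPM, and Eif2ak2 has 1 high liver in each group.

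For eIF2, the carrier of initiator tRNA, and the related carriers Eif2a and Eif2d, the median log2 fold change of 6 genes was under 0.01 in size, and every 95% interval lay inside the 1.5-fold limit. Eif2s1 encodes the alpha subunit, whose phosphorylation slows initiation. The Eif2s1 level was 30.3, 32.0 and 38.8 CPM (lowest, median, highest) in DCHP livers, against 25.8, 28.6 and 32.4 CPM in control livers. These ranges overlapped, and the log2 fold change was 0.21 ± 0.08 (SE, edgeR adjusted p = 0.195). The beta subunit gene Eif2s2 was at -0.02 ± 0.07 (SE).

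The gamma subunit is encoded on both sex chromosomes in the mouse. Eif2s3x was at 0.07 ± 0.07 (SE, edgeR adjusted p = 0.572) and Eif2s3y at -0.18 ± 0.08 (SE, edgeR adjusted p = 0.251). The Y copy took 20.9% to 27.8% of the counts of the pair in DCHP livers and 26.0% to 31.2% in control livers. In the promoter stretches above, the X copy carries the interferon-response word across its start and the Y copy does not carry it. The X and Y genes are related copies whose sequence identity was not measured here. How reads matching both were counted is not given, so the split between them is uncertain.

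The 5 genes of eIF2B, which recharges eIF2 with GTP, had log2 fold changes between -0.06 and 0.16, and their summed level was 97.8 ± 9.58 CPM in DCHP livers and 97.0 ± 6.47 CPM in control livers (SD, n = 6 each). Eif2b5, the catalytic subunit, was at -0.05 ± 0.07 (SE, edgeR adjusted p = 0.709).

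The 4 kinases of eIF2 alpha each answer another stress. Eif2ak2 encodes PKR, the double-stranded RNA sensor induced by interferon. Eif2ak2 was at 17.1, 19.2 and 29.2 CPM (lowest, median, highest) in DCHP livers, against 13.7, 15.1 and 21.2 CPM in control livers. DCHP 5, at 29.2 CPM, stood far above the next DCHP liver, at 19.6 CPM, and this was also the liver with the highest Kupffer cell marker sum, 439.6 CPM. The log2 fold change was 0.35 ± 0.14 (SE, edgeR adjusted p = 0.191), and it was 0.22 (edgeR adjusted p = 0.334) without DCHP 5, where adjusted p ranged between 0.106 and 0.362 over 26 alternatives. DCHP 5 also had the highest erythroid sum, 208 CPM, and the highest mitochondrial share, 8.03%. The part of any of these in the Eif2ak2 level was not tested. In bulk liver, more cells of a type and more RNA per cell cannot be told apart.

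Eif2ak3 encodes PERK, the kinase of the endoplasmic reticulum stress response. Its level was 13.0 to 20.3 CPM in DCHP livers and 11.0 to 17.5 CPM in control livers, and its log2 fold change was 0.34 ± 0.14 (SE, edgeR adjusted p = 0.206). Control 5, at 17.5 CPM, was the only control liver above 14 CPM. Eif2ak4, the amino acid sensor GCN2, was at 0.11 ± 0.08 (SE, edgeR adjusted p = 0.463), and Eif2ak1, the haem-regulated kinase and the most abundant of the 4 at 8.89 CPM per kb, was at -0.10 ± 0.06 (SE, edgeR adjusted p = 0.370).

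Among the factors that scan for the start codon, Eif1a and Eif1b had log2 fold changes of opposite sign, neither past the test. Eif1a, which helps to open the small subunit for scanning, was at 35.0, 43.4 and 59.9 CPM (lowest, median, highest) in DCHP livers, against 31.6, 33.1 and 41.1 CPM in control livers. DCHP 4 was the highest, at 59.9 CPM. The log2 fold change was 0.37 ± 0.11 (SE, edgeR adjusted p = 0.116), and 0.27 without DCHP 4. The X-linked copy Eif1ax was at 0.03 ± 0.08 (SE). Of the counts of the pair, Eif1a took 52.3% to 62.5% in DCHP livers and 49.0% to 53.2% in control livers. This split is uncertain, since how reads matching both copies were counted is not given.

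Eif1b, a minor copy of the start codon gatekeeper Eif1, was at 9.86 to 13.3 CPM in DCHP livers and 12.2 to 15.9 CPM in control livers, with a log2 fold change of -0.24 ± 0.10 (SE, edgeR adjusted p = 0.202). Eif1 itself was at 182, 288 and 302 CPM (lowest, median, highest) in DCHP livers, against 278, 301 and 336 CPM in control livers. DCHP 5 at 182 CPM and DCHP 3 at 236 CPM lay below every other liver. Its log2 fold change was -0.19 ± 0.11 (SE, edgeR adjusted p = 0.393), and -0.10 without DCHP 5. Eif5, the GTPase activator of eIF2, and Eif5b, which joins the large subunit, were at 0.10 ± 0.06 and 0.08 ± 0.09 (SE).

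Eif5a, whose hypusine residue helps ribosomes through proline runs, was at -0.08 ± 0.08 (SE, edgeR adjusted p = 0.590), and Eif6, which keeps ribosomal subunits apart, at 0.05 ± 0.11 (SE, edgeR adjusted p = 0.846).

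The elongation factors themselves were even between the groups. Eef1a1, which carries aminoacyl-tRNA, had 2931, 3447 and 3586 CPM (lowest, median, highest) in DCHP livers, against 3342, 3584 and 4093 CPM in control livers. Its log2 fold change was -0.11 ± 0.08 (SE, edgeR adjusted p = 0.470). Eef2, the translocase, had 1306 to 1741 CPM in DCHP livers and 1444 to 1596 CPM in control livers. The 95% interval of its log2 fold change ran from -0.16 to 0.18. The exchange factor genes Eef1b2, Eef1d and Eef1g were at -0.10 ± 0.10, -0.17 ± 0.08 and -0.07 ± 0.08 (SE), of which Eef1d had an unadjusted p under 0.05 (edgeR adjusted p = 0.247). Eef1e1, despite its name a scaffold of the aminoacyl-tRNA synthetase complex, was at 0.01 ± 0.15 (SE).

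The kinase that inactivates eEF2 was the member with the lowest log2 fold change. Eef2k (chr7:120842831-120907450, plus strand) was at 5.50, 7.69 and 9.18 CPM (lowest, median, highest) in DCHP livers, against 7.76, 10.1 and 13.1 CPM in control livers. The E-box in its promoter stretch above lies at positions -31 to -26 from that start, and the promoter entries at its other starts hold no E-box. Of the control livers only control 2 at 7.76 CPM and control 5 at 8.38 CPM lay inside the DCHP range. The log2 fold change was -0.51 ± 0.16 (SE, edgeR adjusted p = 0.126), with a 95% interval from -0.86 to -0.16. Once each library's trend on exonic length and GC content was removed, it was -0.60 ± 0.16 (SE, edgeR adjusted p = 0.0910), and Eef2k was then the only member past both thresholds. Over the 26 alternatives its adjusted p ranged between 0.0576 (DESeq2) and 0.251 (without control 3). The substrate Eef2 stayed at 0.03 ± 0.09 (SE) in that fit. Of the 5 tested methyltransferases of eEF1A and eEF2, 4 were below 0 and none had an unadjusted p under 0.05.

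Several members share exonic bases with a gene on the other strand, and the strand setting is unknown, so their counts may hold reads of that partner. The longest such stretches were 2151 bases in Eif3d (with Gm17638), 1643 in Eif5b (with Rev1) and 1107 in Eif3j1 (with Spg11). Of the eIF2 alpha kinases, Eif2ak1 shares 487 bases with Aimp2 and 172 with Ankrd61, Eif2ak3 shares 485 with Gm43292 and Eif2ak2 shares 174 with Gm26637. Shorter stretches include 194 bases in Eif4a2 (with Rfc4), 143 in Eif1b (with D830035M03Rik), 138 in Eif6 (with Gm16098) and 101 in Eef2k (with Gm15774).

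Exonic length moved with the differences over all genes, and among the members only by rank. Over all tested genes, log2 fold change and exonic length had a Spearman rho of 0.304, and over the 65 members it was 0.265, while Pearson's r was 0.201 over all tested genes and -0.05 over the members. These are correlations across genes that share the same 12 libraries. The 32 members longer than the member median of 3812 bases had log2 fold changes with a median of 0.02, and the 33 others had a median of -0.06. Per library, the correlation of gene length with the deviation from the mean over livers was highest in DCHP 5 (0.393) and DCHP 3 (0.299), and was lowest in controls 3, 5 and 6 (-0.265, -0.285 and -0.268).

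With each library's length and GC trend removed, Eif3a was at 0.13 ± 0.06 (SE, edgeR adjusted p = 0.258) and Eif4g3 at 0.14 ± 0.06 (SE, edgeR adjusted p = 0.286), so neither stayed under 0.1. Eif3a has 8731 exonic bases, Eif4g3 11063 and Eef2k 7408. After the removal, Spearman rho with exonic length was 0.03 over all tested genes and -0.17 over the members. Pearson's r was then -0.0073 over all tested genes and -0.32 over the members. The members were thus left with a tilt downward with length, which bears on the values of long members in that fit. Eif3j2, a shorter gene, was at 0.46 ± 0.11 (SE, edgeR adjusted p = 0.0657) in the same fit. Over the 26 alternatives the adjusted p ranged between 0.00542 and 0.406 for Eif3a, between 0.0126 and 0.431 for Eif4g3 and between 0.0170 and 0.161 for Eif3j2, with the lowest value from DESeq2 each time, and every alternative kept the sign.

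**Figure D5:**
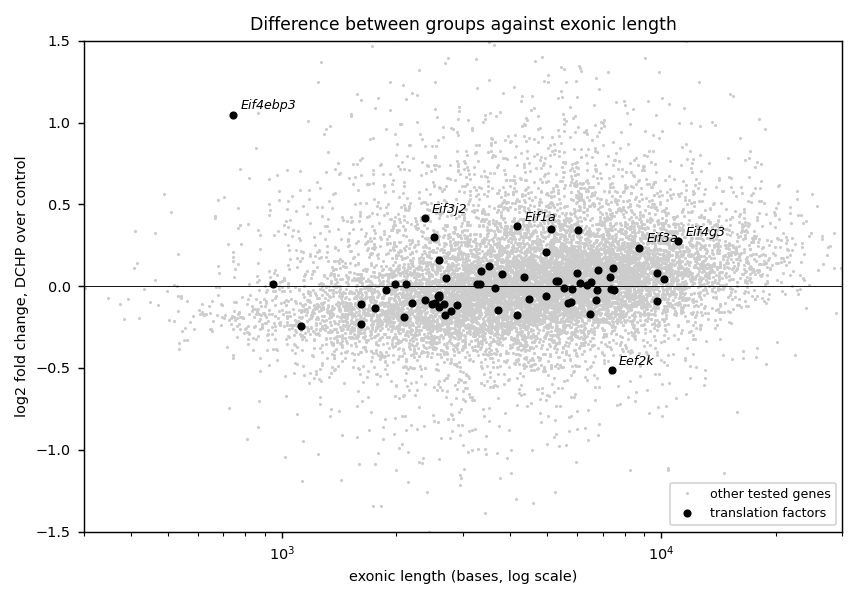
Log2 fold change, paternal DCHP over paternal control, against exonic length (log scale) for all tested genes (grey) and the 65 members (black), with the members of smallest p and Eif4ebp3 named. 83 tested genes lie outside the axes, and the cloud tilts upward with length (Spearman rho 0.304 over all tested genes).

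Genes that work beside these factors were counted in 9 further lists, 0 of which held a called gene (1.28% of all tested genes were called). Over the whole table, 6418 of the 12459 tested genes had a log2 fold change above 0. Among 8 poly(A)-binding proteins and partners, 7 were above 0, and Larp4 had the smallest p (log2 fold change 0.34 ± 0.08, SE, edgeR adjusted p = 0.0728). Ddx3x, an X-linked helicase of initiation, had 202 to 254 CPM in DCHP livers and 164 to 199 CPM in control livers, without overlap, and a log2 fold change of 0.30 ± 0.08 (SE, edgeR adjusted p = 0.0885). Impact, an inhibitor of the activation of Eif2ak4, had 11.6 to 19.4 CPM in DCHP livers and 9.29 to 13.2 CPM in control livers, and its log2 fold change of 0.58 ± 0.13 (SE, edgeR adjusted p = 0.0535) lay just under the fold limit. Eefsec, which delivers the selenocysteine tRNA, was lower in DCHP livers without overlap, at 19.4 to 29.4 CPM against 29.5 to 33.2 CPM in control livers (log2 fold change -0.29 ± 0.09, SE, edgeR adjusted p = 0.118).

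In mTORC1 signalling and its kinases, 6 of 12 genes were above 0 and the smallest p was that of Mtor (log2 fold change 0.22 ± 0.09, SE, edgeR adjusted p = 0.207). Of 22 cytosolic aminoacyl-tRNA synthetases, 15 were above 0, and Eprs had the smallest p (log2 fold change 0.29 ± 0.08, SE, edgeR adjusted p = 0.0917). Mitochondrial translation factors were balanced, with 5 of 10 above 0, and their smallest p was at Tsfm (log2 fold change -0.32 ± 0.10, SE, edgeR adjusted p = 0.121). Of 8 enzymes of hypusine and diphthamide synthesis, which modify eIF5A and eEF2, 7 were below 0, with Dohh at -0.14 ± 0.07 (SE, edgeR adjusted p = 0.327). The cytosolic ribosomal proteins, whose transcripts are short (median exonic length 1770 bases), were below 0 in 79 of 83 genes. Their median was -0.13 on the log2 scale. These genes share the same 12 libraries, so they are not separate observations of the groups. Their summed level was 10379 ± 1411 CPM in DCHP livers and 11294 ± 641 CPM in control livers (SD, n = 6 each). Of the 83, 4 were lower at an unadjusted p under 0.05, a smaller share than the 8.34% of all tested genes. Rps27l had the smallest p of these (log2 fold change -0.33 ± 0.10, SE, edgeR adjusted p = 0.114).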

How the data were processed

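For liver RNA-seq of 12 F1 males, the values used were estimated counts by gene symbol, deposited as a single table, with fractions allowed. Per the labels the build was mm10. Aligner, counter, annotation and strand setting were not given in the sources used here, so overlapping genes and similar copies are uncertain. Each of the 12 columns was matched to its sample by its label and grouped by the sample title.

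Estimated counts were rounded to whole numbers, filtered with filterByExpr (minimum count 10) and scaled by TMM in edgeR (version 4.0.16, R version 4.3.3). All 12 libraries entered 1 quasi-likelihood fit with no covariate, and p-values were adjusted by the Benjamini-Hochberg method over all 12459 tested genes. Thresholds were those of the study, FDR under 0.1 and fold change above 1.5. Standard errors were the absolute log2 fold change over the square root of F. Levels are CPM with TMM scaling. The script was tested on simulated data. No same-group pair of libraries was a duplicate (30 pairs, lowest chi-square per degree of freedom 16.6).

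Alternatives tried were upper-quartile and RLE factors, TMM without abundant or without translation genes, other filters, DESeq2 (version 1.42.0), limma-voom (version 3.58.1), robust dispersion, a replicate block, a surrogate variable (sva, version 3.50.0), removal of each library's smooth trend on exonic length and GC content with mgcv (version 1.9.3), other thresholds, and libraries left out. A change of sign was not counted where the value was under its standard error in both fits. Lengths, GC content and positions (1-based) were read from GENCODE for that build, matched for all 71 members and 99.9% of tested genes. Promoters came from RefSeq.

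Members and lists were chosen with earlier results of these data known. Named were members with an unadjusted p under 0.05 or without overlap, the 6 most abundant per kb, a list of members of central roles, members below the filter, and the gene of smallest p in each neighbouring list. Other members are named to complete a complex or pair, after their values were seen.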

Additional observations from a re-analysis of the deposited data

Results flagged for a closer look

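Among 66 groups of 6 livers examined for a single liver far from the rest, 4 held one, where chance gives about 1 in 20. Eif2ak2 was at 29.2 CPM in DCHP 5, with the next DCHP liver at 19.6 CPM. In the control group, Eif2ak2 was at 21.2 CPM in control 2, with the next control liver at 16.3 CPM. Eif4ebp2 was at 423 CPM in DCHP 5, with the next DCHP liver at 325 CPM, and without DCHP 5 its log2 fold change was -0.18 (edgeR adjusted p = 0.207, within a range of 0.207 to 0.775 over 26 alternatives). Eif2b5 was low in control 4, at 30.6 CPM, where the next control liver was at 35.8 CPM.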

How the results depend on the processing

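Members called stayed at 0 under every scaling, filter, tool and left-out library tried. The exceptions were removal of the length and GC trend, which gave 1 (Eef2k), also with the replicate block, and looser rules, which gave 3 at an FDR under 0.1 with no fold limit and 13 at an unadjusted p under 0.05. Genes called over the whole table numbered 159, of which 120 were higher in DCHP livers, and they numbered 36 at an FDR under 0.05, 479 with no fold limit, 2359 at an unadjusted p under 0.05, 326 by DESeq2 and 105 with the trend removed. Leaving out each library in turn gave 7 to 233, with 7 without control 3, 33 without control 4 or control 6, 38 without control 5, 69 without DCHP 4, 77 without DCHP 5 and 105 without control 1. Members at an FDR under 0.1 with no fold limit numbered 3, but 5 by DESeq2, 2 with the trend removed, 0 under the replicate block, 0 with 1 surrogate variable, and 0 without control 1, 3, 4, 5 or 6 or DCHP 4 or 5. The median member log2 fold change ran from -0.03 to 0.01 over the libraries left out in turn. It was -0.05 without DCHP 1 and DCHP 4 together and -0.04 with the trend removed.

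With the replicate number as a block, 59 genes were called over the whole table and 61 with the trend removed as well. Same-numbered livers showed little shared deviation (correlations of -0.12 to 0.17, with 1 of 6 numbers matching itself best). As litter, sire and handling are not in the labels, this check cannot settle whether the numbers pair the livers. No result with a called sign reversed. Eef2, Eif6, Eif4a2 and a few others changed sign only with values under their standard error. The median standard error of a member, 0.08 on the log2 scale, limits what 6 livers a group can show.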

Other observations

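The 3 members on mouse chromosome 18, Eif3j2, Eif1a and Eif4ebp3, all had positive log2 fold changes (0.42, 0.37 and 1.05). All 3 had an unadjusted p under 0.05, as did 18.9% of all tested genes. Impact and Ankhd1, at 0.58 and 0.36, lie on the same chromosome. Impact was named for the smallest p of its list and Ankhd1 as the neighbour of Eif4ebp3. The 307 tested genes of chromosome 18 had a median log2 fold change of 0.04, against 0.01 for all tested genes. Medians on the other autosomes lay between -0.02 and 0.04, and those of chromosomes 12 and 16 were also 0.04, so chromosome 18 did not stand apart. The grouping of these members was noticed after the values were seen and was not tested.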
